A study of Homo sapiens with 6 samples.

Results

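The translation elongation factors with EEF1A2 comprised 7 of the 26255 gene rows measured by RNA-seq, EEF1A1, EEF1A2, EEF1B2, EEF1D, EEF1G, EEF1E1 and EEF2. The family was chosen by the fall of EEF1A2 in the comparison of shGPR81 with shNT libraries described here, and the other 6 genes were taken by family name, so the values of EEF1A2 in this comparison are a description and carry no test. The cells were MDA-MB-231, an established human breast cancer line, infected with lentivirus that expressed a short hairpin RNA and selected with puromycin. The control libraries (shNT, n = 3) carried a non-targeting hairpin, and the others (shGPR81, n = 3) carried a hairpin against GPR81, the cell-surface receptor for lactate encoded by HCAR1. The study used a pair of GPR81 hairpins, and the sources used here do not say which of them was sequenced, nor whether the replicates were separate cultures, so the p-values measure only the spread between these libraries, which may be technical.

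During elongation, eEF1A bound to GTP brings aminoacyl-tRNA to the ribosome. EEF1A1 and EEF1A2 encode 2 forms of this protein: EEF1A1 is expressed in most cells, whereas EEF1A2 is the form of adult neurons, heart and skeletal muscle and is also expressed in many breast and ovarian tumours. The proteins of EEF1B2, EEF1D and EEF1G form the exchange factor that replaces GDP on eEF1A with GTP, eEF2 moves the ribosome along the mRNA by one codon, and EEF1E1 encodes a small scaffold protein of the multisynthetase complex that is named as an elongation factor through its similarity to the exchange factor.

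Many mRNAs of the elongation machinery begin with a pyrimidine tract, through which mTOR signalling acts on their translation. The start-site sequences of 5 members are shown for this feature, which the choice of the family did not use. Each window holds 30 bases read 5′ to 3′ on the gene's strand, 10 before the annotated start and 20 from it (RefSeq, GRCh38.p14), with the longest run of C and T in capitals.
EEF1A1, chr6:73521013-73521042, minus strand: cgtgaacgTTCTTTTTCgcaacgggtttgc
EEF2, chr19:3985444-3985473, minus strand: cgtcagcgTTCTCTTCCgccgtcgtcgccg
EEF1B2, chr2:206159885-206159914, plus strand: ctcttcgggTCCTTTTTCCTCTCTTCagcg
EEF1B2, upstream start, chr2:206159599-206159628, plus strand: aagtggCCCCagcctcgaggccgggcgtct
EEF1G, chr11:62573872-62573901, minus strand: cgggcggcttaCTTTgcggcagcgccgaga
EEF1E1, chr6:8102529-8102558, minus strand: tgcaggTCTCgcgtctgccaggagctacgg
The runs of EEF1A1 and EEF2 were 9 bases long and crossed the start, from position -2 to position 7 where the first transcribed base is 1. A run at least as long was held by 8.48% of the 35116 annotated starts of all genes in windows of the same length. The run of the downstream EEF1B2 start reached 17 bases, a length met by 0.581% of starts. The longest runs of EEF1G, EEF1E1 and the upstream EEF1B2 start were 4 bases, a length met by 70.7% of starts. That of EEF1G lay at positions 2 to 5. Those of EEF1E1 and the upstream EEF1B2 start lay at -4 to -1, before the first transcribed base. The longest run in a window does not decide whether an mRNA begins with a pyrimidine tract, so no member is said to lack one. EEF1A2 and EEF1D had no entry among the start sequences used, so nothing is shown for them. These runs are a property of the annotated sequence, and the RNA levels below do not measure translation.

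The targeted gene itself did not separate the groups by its FPKM. The paper reports lower GPR81 RNA (RT-qPCR) and protein (western blot) in its cells with GPR81 hairpins. HCAR1 was measured at 0.968, 1.02 and 1.36 FPKM (fragments per kilobase, scaled to library size) in the shNT libraries and at 0.978, 0.891 and 0.396 in the shGPR81 libraries. The groups overlapped, and the difference (log2 fold change -0.57, SE 0.31, adjusted p = 0.380, limma with Benjamini-Hochberg adjustment over all genes) did not pass the threshold, so directions below refer to the libraries labelled shGPR81. Of the markers of this mesenchymal line, VIM, CD44 and AXL were present, VIM at 3552 ± 365 FPKM in shNT and 4135 ± 268 in shGPR81 (SD, n = 3), and SPARC was nearly absent at 0.106 ± 0.0199 and 0.0537 ± 0.0228. The luminal genes ESR1, PGR and CDH1 were listed at 0 in all 6 libraries, FOXA1 and GATA3 averaged under 2 FPKM, and ERBB3 was higher in the libraries labelled shGPR81 (2.69 ± 0.611 FPKM against 1.43 ± 0.162, log2 fold change 0.85, adjusted p = 0.0352). The part of these markers in the results below was not tested. Relative sequencing depth ranged from 1 to 1.07, and the row of MIR6723 took 28.1% to 36.2% of the summed FPKM.

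Of the 7 elongation factors, EEF1A2 was the member that stood apart between the groups. The remaining 6 members differed by at most 0.11 on the log2 scale in either direction, and 0 of them were called (limma, adjusted p below 0.05 together with a fold change over 1.5), as against 2.54% of the 14349 genes tested. At an unadjusted p under 0.05 the count was also 0 of 6, against 19.5% of all genes tested. The adjusted p-values of the 6 ran from 0.583 to 0.864, and their 95% intervals lay between -0.34 and 0.32, so a change of that size could have been missed with these libraries. Their median log2 fold change was 0.02, against 0.0081 for all genes tested, and 3 of the 6 were negative, against 48.1% of all genes. All 7 members passed the filter on low values.

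**Figure D1:**
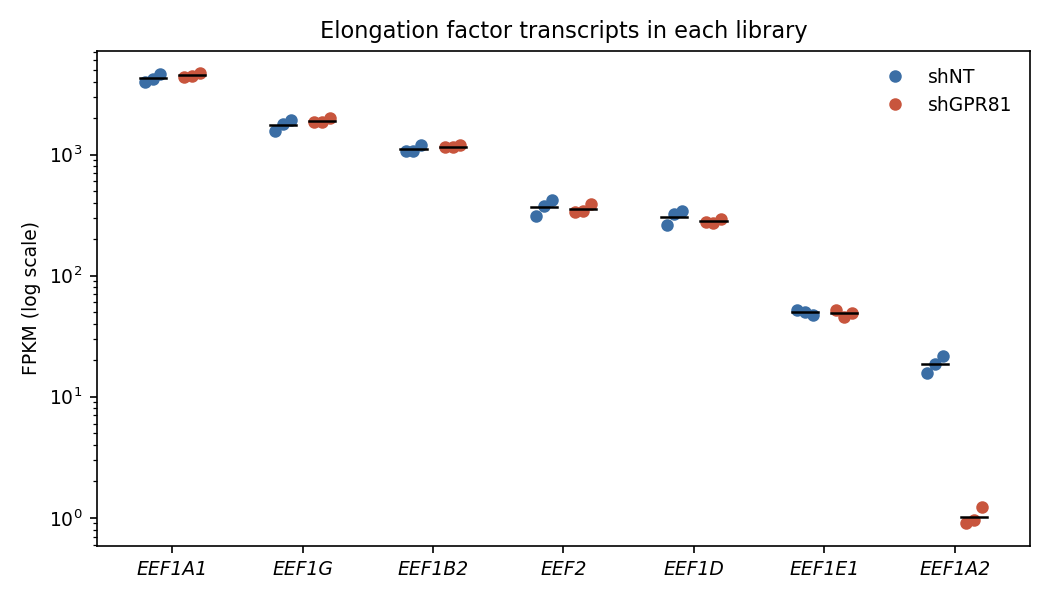
FPKM on a log axis for the 7 elongation factors in each of the 6 libraries, with shNT and shGPR81 points side by side and a short line at each group mean. EEF1A2 dropped from a mean of 18.8 to 1.02 FPKM, and the points of the other 6 genes overlapped between the groups.

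EEF1A2 lies on the minus strand of chromosome 20 (62119366 to 62130592, GRCh37). Its level was 15.6, 18.8 and 21.9 FPKM in the shNT libraries. In the shGPR81 libraries it was 0.903, 0.953 and 1.22 FPKM. Each library labelled shGPR81 was far below each shNT library, and the lowest shNT value was 12.8 times the highest shGPR81 value. The means were 18.8 ± 3.15 and 1.02 ± 0.170 FPKM (SD, n = 3 each), a ratio of means 18.3-fold lower in shGPR81. The fitted log2 fold change on the log2(FPKM + 0.1) scale was -4.06 (SE 0.16). These are the values for which the family was picked. In bulk RNA, fewer cells that express EEF1A2 and less EEF1A2 RNA per cell cannot be told apart.

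The EEF1A2 values could be read back as whole reads, since each was within 0.000554 read of a whole number, with 1 read worth 0.0403 FPKM in the first shNT library. The shNT libraries then held 387, 478 and 544 EEF1A2 reads, and the shGPR81 libraries held 24, 25 and 32. EEF1A2 RNA was therefore still detected in every library labelled shGPR81. Over the groups, 1409 reads stood against 81, a depth-corrected ratio 18.3-fold lower in shGPR81 (95% exact Clopper-Pearson interval 14.6 to 23.2, which covers counting error only and was computed on the values that chose the gene). Ranked by the size of the fall, EEF1A2 was number 4 of the 11677 genes that averaged 1 FPKM or more.

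EEF1A1, the main form of eEF1A, was the most abundant member. It lies on the minus strand of chromosome 6 (74199031 to 74235310, GRCh37). Its level was 4004, 4217 and 4664 FPKM in shNT and 4380, 4470 and 4691 in shGPR81. All 3 shGPR81 values were within or just above the shNT range. The means were 4295 ± 337 and 4514 ± 160 FPKM. The log2 fold change was 0.07 (SE 0.08, 95% interval -0.12 to 0.27, adjusted p = 0.707), and it turned to -0.015 after quantile normalization. A rise of more than 0.27 or a fall of more than 0.12 on the log2 scale lay outside the interval.

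The question of how much of the total eEF1A RNA was lost with EEF1A2 was addressed by summing both genes in each library, because FPKM are scaled per length. The EEF1A pool was 4020, 4236 and 4686 FPKM in shNT. It was 4381, 4471 and 4692 FPKM in shGPR81. The groups overlapped, and the pool averaged 4314 ± 340 in shNT and 4515 ± 160 in shGPR81, a log2 ratio of 0.07 that is within the spread of the shNT libraries. No test was run on the pool, since EEF1A2 is part of it.

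EEF1A2 made up 0.388%, 0.444% and 0.467% of the pool in the shNT libraries and 0.0206%, 0.0213% and 0.0260% in the shGPR81 libraries. The share was thus below 1% in all 6 libraries, with averages of 0.433 ± 0.0408% and 0.0226 ± 0.00292% (SD, n = 3). For each unit of EEF1A2 there were 229 of EEF1A1 in shNT and 4405 in shGPR81. The mean loss of EEF1A2 was 17.7 FPKM, which equals 0.411% of the mean shNT pool. The SD of EEF1A1 among the shNT libraries was 19 times this loss, and their range was 660 FPKM. A change of the pool by the amount of EEF1A2 lost was therefore not detectable with these replicates.

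**Figure D2:**
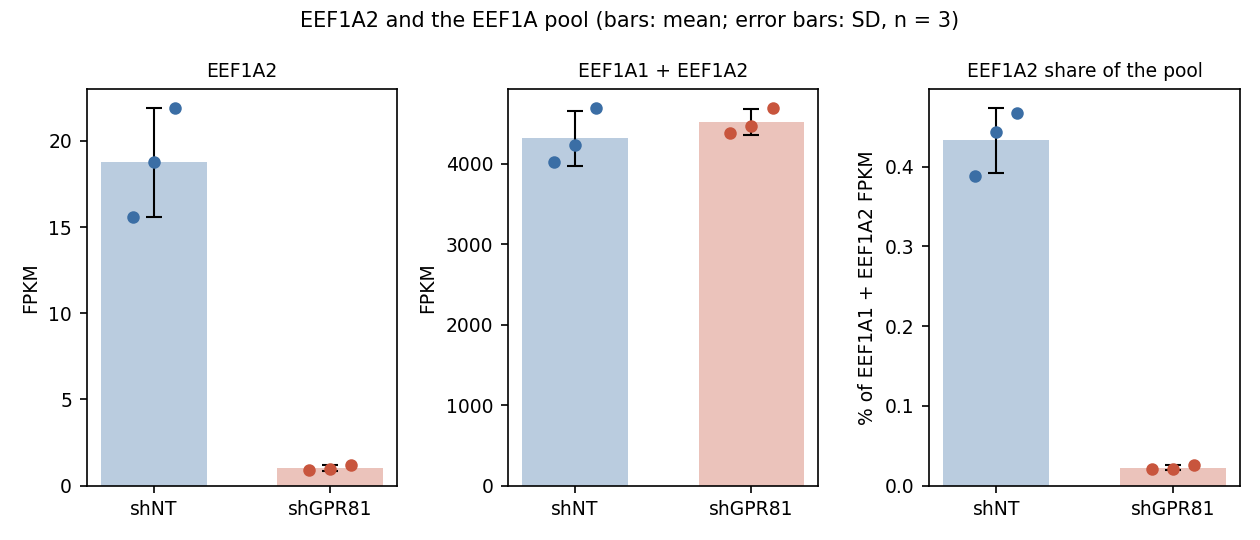
EEF1A2 in FPKM (left), the sum of EEF1A1 and EEF1A2 in FPKM (middle) and EEF1A2 as a percent of that sum (right) in shNT and shGPR81, with bars for the mean, error bars for the SD (n = 3) and 1 point per library. The pool overlapped between the groups (4020 to 4686 in shNT and 4381 to 4692 FPKM in shGPR81), whereas the mean share was 0.433% in shNT and 0.0226% in shGPR81.

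The separation of the 2 forms in the read counts was examined on the annotated transcripts (GRCh37, GENCODE 44). Their coding sequences, 1389 bases in EEF1A1 and 1392 in EEF1A2, were identical at 78.2% of the aligned bases. Of the 1699 windows of 75 bases, the read length, in the 1773-base EEF1A2 transcript, 0 matched any of 23 EEF1A1 transcripts or 50 EEF1A1 pseudogene transcripts with up to 2 mismatches. For the 3512-base EEF1A1 transcript, 1158 of 3438 windows (33.7%) matched a pseudogene transcript exactly and 38.3% with up to 2 mismatches. No row of an EEF1A1 pseudogene was among the genes measured, so how reads shared with these copies were assigned is uncertain and the level of EEF1A1 carries that uncertainty.

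The exchange factor subunits were all abundant and overlapped between the groups. EEF1G, which encodes the subunit that anchors the complex, lies on chromosome 11 (62327068 to 62341558, GRCh37) and was second in level. It was measured at 1573, 1788 and 1945 FPKM in shNT and 1847, 1857 and 2004 in shGPR81. The shNT values spread more widely than the shGPR81 values and reached below them. The means were 1769 ± 187 and 1903 ± 88.2 FPKM (log2 fold change 0.11, SE 0.09, 95% interval -0.10 to 0.32, adjusted p = 0.583).

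EEF1B2, which encodes a subunit with nucleotide exchange activity, lies on chromosome 2 (207024309 to 207027652, GRCh37). Its values were 1073, 1070 and 1194 FPKM in shNT and 1144, 1147 and 1200 in shGPR81. The highest shNT library lay between the shGPR81 libraries, so the groups overlapped. The means were 1112 ± 70.4 and 1164 ± 31.4 FPKM (log2 fold change 0.07, SE 0.06, 95% interval -0.08 to 0.22, adjusted p = 0.652), with a value of -0.030 after quantile normalization.

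EEF1D encodes the other subunit with exchange activity and lies on chromosome 8 (144661867 to 144681711, GRCh37). It was present at 259.9, 319.7 and 340.7 FPKM in shNT and 278.6, 273.8 and 296.0 in shGPR81. The shGPR81 values all fell between the lowest and the middle shNT values. The means were 307 ± 41.9 and 283 ± 11.7 FPKM (log2 fold change -0.11, SE 0.10, 95% interval -0.34 to 0.12, adjusted p = 0.633).

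Relative to the EEF1A pool of the same library, EEF1B2 stood at 25.8 ± 0.768% in shNT and 25.8 ± 0.292% in shGPR81, and EEF1G at 41.0 ± 1.61% and 42.1 ± 0.593%. EEF1D stood at 6.47%, 7.55% and 7.27% in shNT and at 6.36%, 6.12% and 6.31% in shGPR81. EEF1B2 and EEF1G thus held nearly the same ratio to the pool in both groups, and EEF1D was the 1 of the 5 remaining members whose ratio did not overlap between groups, with a small gap between the nearest libraries. Over all genes tested, 23.9% had a ratio to the pool that did not overlap, so 1 of 5 is near the background. No test was run on these ratios.

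EEF2, the translocation factor, lies on chromosome 19 (3976054 to 3985461, GRCh37). Its level was 311, 378 and 423 FPKM in shNT and 337, 341 and 390 in shGPR81. All 3 shGPR81 values lay inside the shNT range. The means were 371 ± 56.4 and 356 ± 29.4 FPKM (log2 fold change -0.05, SE 0.11, 95% interval -0.32 to 0.22, adjusted p = 0.864). EEF2 stood at 8.56 ± 0.716% of the EEF1A pool in shNT and 7.87 ± 0.377% in shGPR81.

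EEF1E1, the multisynthetase scaffold, lies on chromosome 6 (8073593 to 8102792, GRCh37) and was the least abundant of the 6. It was measured at 51.86, 50.03 and 47.47 FPKM in shNT and 51.78, 45.93 and 48.78 in shGPR81. The groups were interleaved. The means were 49.8 ± 2.21 and 48.8 ± 2.92 FPKM (log2 fold change -0.03, SE 0.06, 95% interval -0.17 to 0.12, adjusted p = 0.859). A readthrough row that joins EEF1E1 to the neighbouring BLOC1S5 overlaps it and was at 5.98 ± 1.24 and 5.82 ± 1.04 FPKM, so reads could be divided between these rows.

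The order of the members by FPKM was the same in all 6 libraries, with EEF1A1 highest, followed by EEF1G, EEF1B2, EEF2, EEF1D, EEF1E1 and EEF1A2. EEF2 and EEF1D were the 1 pair of neighbours in this order whose ranges over the 6 libraries overlapped, and every other neighbouring pair was separated beyond its spread. None of the 6 members other than EEF1A2 was separated without overlap between the groups, a separation seen in 25.6% of all genes tested. The third library was the highest of its group for 5 of the 6 and the first the lowest for 4 of the 6, in shNT and in shGPR81 alike. The summed FPKM of the 6 members moved with these libraries, 7273, 7823 and 8614 in shNT and 8038, 8134 and 8629 in shGPR81. The sum of the ribosomal protein genes did so in shNT, at 122475, 134430 and 141990. In shGPR81 it was 133880, 130816 and 141838, highest in the third library but lowest in the second. The part of this shared spread in the members' errors was not tested.

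The rest of the elongation machinery was examined as a list of 18 genes, among them the eIF5A forms, the eEF2 kinase and the enzymes that modify eEF1A and eEF2. All 18 were tested and 0 passed both thresholds. One, EIF5A2, had an adjusted p below 0.05, whatever the fold, as did 5.13% of all genes tested. At an unadjusted p under 0.05 (limma) the count was 4 of 18, against 19.5% of all genes tested. EIF5A2, the less abundant form of a factor that relieves stalled ribosomes, was lower in the libraries labelled shGPR81, at 5.07 ± 0.103 FPKM in shNT and 3.74 ± 0.271 in shGPR81 (log2 fold change -0.43, SE 0.09, adjusted p = 0.0348). Its reads were 375, 373 and 379 in shNT and 284, 315 and 277 in shGPR81, without overlap. The main form EIF5A was measured at 923 ± 97.9 and 896 ± 60.2 FPKM (log2 fold change -0.04, adjusted p = 0.868). At the other end of the list, METTL21B, which encodes a methyltransferase of eEF1A, had a log2 fold change of 0.25 (adjusted p = 0.355). The median of the list was -0.023.

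Mitochondrial elongation factors, 5 genes, had negative log2 fold changes throughout with a median of -0.081. Of these, 0 passed the adjusted p (limma), against 5.13% of all genes tested. An unadjusted p under 0.05 was seen for 1 of the 5, against 19.5% of all genes tested. GFM1, a mitochondrial translocation factor, was measured at 22.1 ± 1.48 and 18.4 ± 1.01 FPKM (log2 fold change -0.26, adjusted p = 0.0879), and GFM2 had a log2 fold change of -0.02. Of 6 genes whose proteins have been described as eEF1A partners, 0 passed at an adjusted or an unadjusted p under 0.05 (limma). Over all genes tested the shares were 5.13% and 19.5%, so little can be read from 0 of 6. The log2 fold changes of these partners ran from -0.05 for PI4KB, a lipid kinase, to 0.03 for AKT1.

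Initiation factors were examined as a list that also held the regulators EIF4EBP1 and EIF4EBP2 and the poly(A)-binding PABPC1, with 36 tested genes of 37. Of these, 0 passed both thresholds and 2 had an adjusted p below 0.05 (limma), a share near the 5.13% of all genes tested. EIF2S2, the beta subunit of the factor that carries the initiator tRNA, was at 154 ± 4.26 FPKM in shNT and 118 ± 1.95 in shGPR81 (log2 fold change -0.38, SE 0.04, adjusted p = 0.0039). EIF6, which keeps the large ribosomal subunit from joining too early, was at 471 ± 53.7 FPKM in shNT and 353 ± 10.3 in shGPR81 (log2 fold change -0.41, SE 0.08, adjusted p = 0.0347). Both were lower in the libraries labelled shGPR81, by less than the fold threshold. At the upper end, EIF5 had a log2 fold change of 0.10. The list had 28 negative values of 36, against 48.1% of all genes tested, and a median of -0.053. An unadjusted p under 0.05 (limma) was held by 5 of the 36, against 19.5% of all genes tested.

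None of 77 tested ribosomal protein genes, 3 termination factors and 10 multisynthetase genes passed the adjusted p (limma), against 5.13% of all genes. At an unadjusted p under 0.05 the counts were 5, 1 and 1, against 19.5% of all genes tested. The extremes of the ribosomal proteins were RPL21 at a log2 fold change of -0.56 (adjusted p = 0.349) and RPL13A at 0.22 (adjusted p = 0.108), around a median of 0.023. The termination factors ranged from -0.12 for ETF1, which recognises stop codons, to -0.05 for GSPT1. The multisynthetase genes ranged from -0.17 for AIMP2, a scaffold protein, to 0.05 for IARS.

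**Figure D3:**
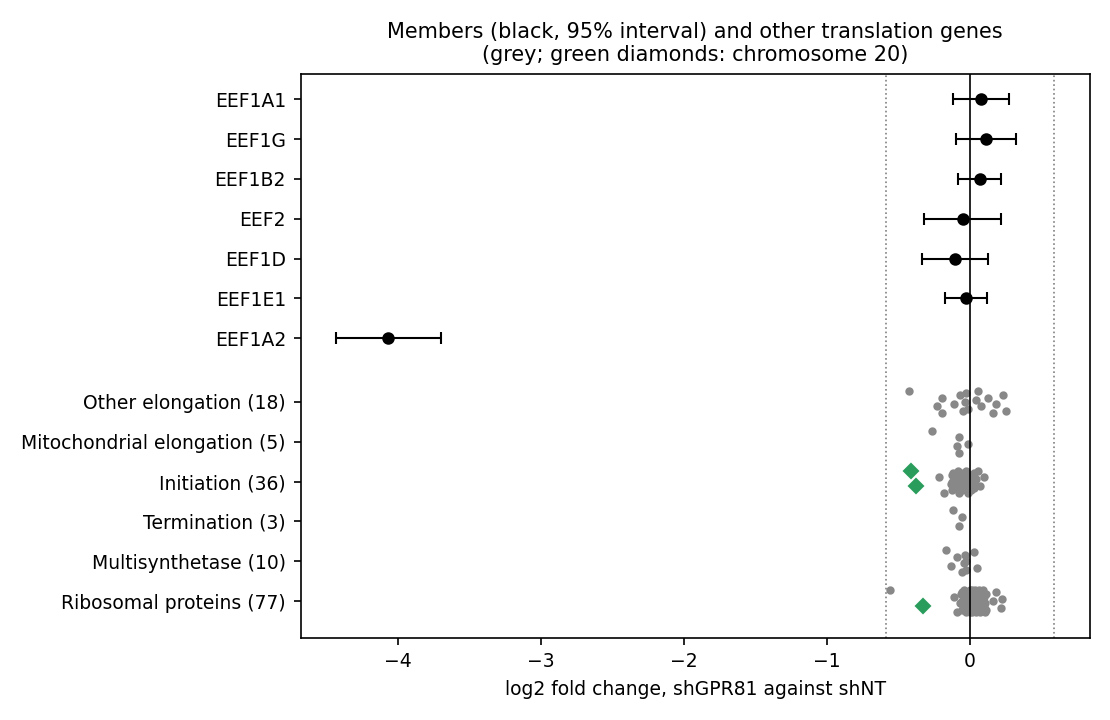
Log2 fold change (shGPR81 over shNT, log2(FPKM + 0.1) scale) of the 7 elongation factors and of 6 further lists of translation genes. Members are black with 95% intervals, other genes are grey, genes of chromosome 20 are green diamonds, and dotted lines mark a fold change of 1.5. EEF1A2 lay at -4.06, and the other translation genes lay between -0.56 and 0.25.

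EEF1A2 lies near the end of the long arm of chromosome 20, and genes across that chromosome were lower in the libraries labelled shGPR81. Of the 266 chromosome 20 genes that averaged 5 FPKM or more, EEF1A2 left out, 256 had negative log2 fold changes and the median was -0.40, with a 5th percentile of -0.69 and a 95th percentile of -0.06. Over the 8215 such genes of all other chromosomes the median was 0.0093 and 3865 were negative. EEF1A2 lay far below this range, and so did the readthrough row TGIF2-C20orf24 at -2.91, the lowest of the 266, which is named here after its value was seen. Whether the lower level of the chromosome had a part in the value of EEF1A2 was not tested.

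The 5 tested genes nearest to EEF1A2 on each side, from 561 kb before it to 158 kb after it, were compared with it. Of these 10, 9 had negative log2 fold changes, with a median of -0.34. BIRC7, which encodes an inhibitor of apoptosis, was listed at 0 in the libraries labelled shGPR81 and at 0.131, 0.192 and 0.312 FPKM in shNT. It was the 1 neighbour of 10 that passed both thresholds, against 2.54% of all genes tested. BIRC7 entered the test only through the shNT libraries, so nothing is read from that call. The nearest neighbour, PPDPF, had a log2 fold change of -0.35 (adjusted p = 0.258, limma). HELZ2, a coactivator with helicase domains, had -0.53 (adjusted p = 0.0207), under the fold threshold. Before EEF1A2, GID8 had -0.35, SLC17A9 -0.48, YTHDF1 -0.34 and ARFGAP1 -0.30, also under the fold threshold. Their adjusted p-values (limma) ran from 0.0092 to 0.0326. An adjusted p below 0.05, whatever the fold, was seen in 5.13% of all genes tested. GMEB2 and STMN3 had -0.31 and -0.28 (adjusted p = 0.121 and 0.245). PTK6, which encodes a tyrosine kinase expressed in breast tumours, was the 1 neighbour with a positive value, 0.16.

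The 3 translation genes of chromosome 20, EIF2S2, EIF6 and RPS21, had log2 fold changes from -0.41 to -0.33, close to the median of the chromosome. The remaining 146, of which 144 had a single annotated locus, had a median of -0.0040, with 78 negative and 1 that passed the adjusted p, EIF5A2. This grouping was made after the values were seen and is a description. No other member of the elongation factor family lies on chromosome 20.

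**Figure D4:**
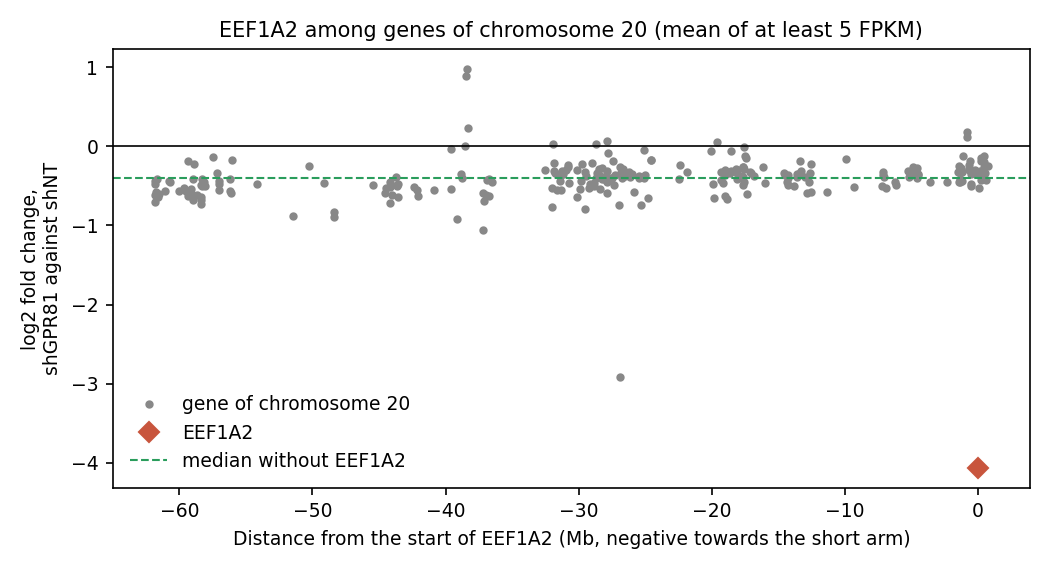
Log2 fold change (shGPR81 over shNT) of each chromosome 20 gene that averaged 5 FPKM or more (grey points), plotted against its distance from the start of EEF1A2 in megabases, negative towards the short arm; the diamond is EEF1A2 and the dashed line the median of the others. Points all along the chromosome lay mostly below 0 (256 of 266), with a median of -0.40. Many points towards the short-arm end lay below that median, and EEF1A2 lay at -4.06.

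The genes whose log2(FPKM + 0.1) followed that of EEF1A2 most closely over the 6 libraries were PPT1, a lysosomal thioesterase, and APMAP, a membrane protein of chromosome 20, both with Pearson r = 0.999, followed by TNS4, a focal adhesion protein, EFEMP1, a matrix glycoprotein, and IGFBPL1, each with r = 0.998. All 5 had lower means in shGPR81, PPT1 at 96.9 and 87.0 FPKM and TNS4 at 6.32 and 2.87 FPKM in shNT and shGPR81. Over 6 libraries in 2 groups such a correlation mostly follows the group difference, and 592 of the 11677 genes compared had r above 0.9. No p is given for it.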

How the data were processed

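Single-end reads of 75 bases from stranded mRNA libraries of 6 samples were mapped by the authors with TopHat2 2.0.13, Bowtie2 2.2.3 and SAMtools 0.1.19. Cuffnorm 2.2.1 is also named in the submitters' processing notes. The authors deposited FPKM, 1 value per gene symbol and library. The methods name the human genome (GRCh37) and the deposited notes a mouse build; the cells are human, so GRCh37 was used, with GENCODE 44 coordinates. The methods describe iDEP on read counts; because FPKM were used here, log2(FPKM + 0.1) was compared with limma 3.58.1 (lmFit, eBayes with trend; R 4.3.3) for the 14349 genes that reached 0.1 FPKM in 3 or more libraries; p-values were adjusted over all of them (Benjamini-Hochberg). Calls needed an adjusted p below 0.05 together with a fold change over 1.5, the study's thresholds. The pseudocount understates the change of low genes. Reads and relative depth were recovered from the steps in low FPKM values; total depth was not given. The code was tested on simulated data.

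The members and gene lists were chosen with earlier results of these data known. Named were all members, the genes of the lists that were called or else had the largest and smallest log2 fold changes, HCAR1, the 5 nearest tested genes on each side of EEF1A2, and the 5 genes with the highest correlation with it; EIF2S2, EIF5A, RPS21, ERBB3 and TGIF2-C20orf24 were named after their values were seen. Of 169 list genes all were matched, 1 through an older symbol. Alternatives were other pseudocounts, filters and scalings, a replicate block and leaving out each library. Start sequences came from RefSeq (GRCh38.p14) and were joined by symbol.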

Additional observations from a re-analysis of the deposited data

How the results depend on the processing

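The log2 fold change of EEF1A2 lay between -4.20 and -3.28 over 15 alternatives. It was -3.28 with a pseudocount of 1 FPKM, which by construction shrinks a level near 1 FPKM, and -3.65 after centring on the genes of chromosome 20, an alternative chosen after seeing the data. None of the 6 other members was called in any of 14 alternatives, and 0 genes of the other elongation, initiation and ribosomal lists were called in any of 13. Signs of values near 0 turned. After quantile normalization EEF1A1 stood at -0.015 and EEF1B2 at -0.030. Leaving out 1 library at a time, EEF1E1 ranged from -0.072 to 0.015, positive without shNT replicate 1 or shGPR81 replicate 2, and EEF2 from -0.17 to 0.050, positive without shNT replicate 3. EEF1D went from -0.22 without shNT replicate 1 (adjusted p = 0.0555, limma) to -0.028 without shNT replicate 3, and EEF1A1, EEF1B2 and EEF1G were between 0.025 and 0.18. The log2 ratio of the pool was 0.017 to 0.13 over 7 alternatives, and the share of EEF1A2 was 0.416% to 0.455% in shNT and 0.0210% to 0.0236% in shGPR81 when libraries were left out. Adding EEF1A1 pseudogene rows to the pool gave no value, since no such row was measured.

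Same-numbered libraries deviated together with correlations of 0.12, 0.022 and 0.0058, so the numbers were not taken to pair them, although the third library was the highest of its group for 5 of the 6 other members in both groups. With a replicate block the log2 fold change of EEF1A2 was -4.06, that of EEF1A1 was 0.07 (adjusted p = 0.521, limma), 0 of the 6 other members were called, and the calls over all genes moved from 228 lower and 137 higher to 197 and 115. Testing against the fold threshold itself left 46 lower and 9 higher, and a pseudocount of 1 FPKM 142 and 75. Without shNT replicate 2, or shGPR81 replicate 1 or 2, the calls were 121 to 135 lower and 65 to 81 higher. With 3 libraries a group, differences inside the members' 95% intervals cannot be told from 0.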
